A study of Mus musculus with 384 samples.

Results

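The 46 genes described here are a given list of interferon response genes, each found by its symbol in the count matrix. They are a small part of 50556 genes, 30597 of them with a count somewhere. They were followed gene by gene and cell by cell in regulatory T (Treg) cells sorted singly from mouse ear skin. Of the 46, 45 had a count in at least 1 cell that passed the filters, 42 entered the comparison of treatments, and Ifi44 had no count in any well.

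Interferons are secreted proteins that signal through receptors at the cell surface, the Janus kinases and the STAT transcription factors. Type I interferon acts mainly through the interferon-stimulated response element (ISRE), which a complex with Stat2 and Irf9 binds, and interferon-gamma acts through the gamma-activated sequence (GAS). The genes switched on include antiviral effectors, sensors of viral RNA, large GTPases and proteins of the cell surface. Imiquimod is an agonist of Toll-like receptor 7, a sensor of RNA in endosomes, and is applied to mouse skin to give a psoriasis-like inflammation.

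All mice were treated on the ear skin under isoflurane, with either 5% imiquimod or vehicle, and cells were sorted on day 3. The title prefixes divide the single-cell wells into 4 sets of 87, called plates here: vehicle plates 1 and 2 and imiquimod plates 1 and 2. There were also 16 wells of 10 Treg cells and 20 wells without a cell, for which no treatment is given. The labels give no strain, genotype or age, and the study text speaks of 2 mice per treatment but not of which plate came from which mouse, so the tests below measure only the spread between plates, which may be technical.

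Wells with at least 500 genes and 10000 counts were kept, which left 62 and 58 vehicle cells (plates 1 and 2) and 38 and 44 imiquimod cells. Pairs of values below keep that order, plate 1 before plate 2. Kept cells held 47481 to 5946386 counts, and the plate sums held 67319087 to 99396458. Median genes per kept cell were 1040 and 1503 for vehicle and 975 and 1093 for imiquimod. At least 1 of 7 markers of Treg cells had a count in 76.3% to 94.8% of the kept cells of a plate. Of these markers, Ikzf2 was found in 59.4% of all kept cells, Foxp3 in 37.1% and Ctla4 in 28.7%. At least 1 marker of T cells in general had a count in 89.5% to 96.6% of a plate's kept cells. At 10 counts or more these shares were 73.7% to 86.2% for Treg markers and 65.5% to 68.4% for T cell markers. Of the B cell markers 0 had a count on the vehicle plates, and those of CD8, NK or gamma-delta T cells summed to at most 1.53 CPM, which are counts relative to the sum over all genes. On the imiquimod plates the B cell markers summed to 2.17 and 26.5 CPM. Macrophage markers summed to 4.99 to 132.2 CPM over the 4 plates and dendritic cell markers to 141.1 to 527.2 CPM, with overlap between treatments. Of the dendritic cell sums, Zbtb46 alone gave 139.8 and 380.2 CPM for vehicle and 253.9 and 527.2 CPM for imiquimod. Zbtb46 was found in 33.7% of kept cells. Flt3 and Itgax were at no more than 2.47 and 0.020 CPM, Xcr1 reached 14.1 CPM on vehicle plate 2, and Cd209a had no count. Keratinocyte markers were at most 5.42 CPM except in 1 cell of imiquimod plate 2. That cell, well 18, held them at 6163 CPM, with 7483 genes and no count of Foxp3. Of 4 mast cell markers, Kit was at 271.2 and 115.6 CPM for vehicle and 4.50 and 6.42 CPM for imiquimod, while Cpa3 was at no more than 1.40 CPM and Mcpt4 and Cma1 had no count in a kept cell. Of 5 neutrophil markers, Mmp9 was at 120.5 and 381.9 CPM against 0.015 and 0, S100a9 at 0 and 6.39 against 43.4 and 42.5 and S100a8 at 0 and 6.81 against 10.9 and 13.0 CPM, while Ly6g and Retnlg had no count. Haemoglobin and other erythroid markers were found in 3.23% and 19.0% of vehicle cells and in 55.3% and 45.5% of imiquimod cells. Summed, the erythroid markers were at 555.3 and 33.4 CPM against 526.7 and 302.2 CPM. The share of cells with erythroid markers and the levels of Kit, Mmp9, S100a8 and S100a9 differed between treatments without overlap of the plates. Some Treg markers did so too. Il2ra (2862 and 2411 against 456.2 and 919.7 CPM) and Ikzf2 (4407 and 4165 against 1289 and 2631) were lower in imiquimod. Foxp3 (1083 and 494.8 against 1136 and 1151) and Tnfrsf4 (870.7 and 854.7 against 2558 and 887.8) were higher, and Ctla4, Icos and Tnfrsf18 overlapped. Of the T cell markers, Cd4, Tcra and Tcrb were lower, Cd2 and Cd3g higher, and Cd3e, Cd3d and Lck overlapped. The part of all these markers in the results below was not tested.

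Most of the 46 genes were rarely seen in a given cell. The median gene was detected in 4.21% of them, 25 genes in under 5% and 12 in over 10%, where detected means at least 1 count. Trim30a and Ly6e were the exceptions, each with a count in more than 25% of cells. Trim30a encodes a tripartite motif protein and Ly6e a lipid-anchored surface protein. Trim30a was found in 69.3% of the kept cells and Ly6e in 53.0%. At a stricter limit of 10 counts, Ly6e was still found in 45.0% of cells, but Trim30a in 17.8%. Trim30a also had a count in 9 of the 20 wells without a cell, at up to 15 counts and at 10 or more in 3. Its detection at either limit thus overlaps the level in empty wells.

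**Figure D1:**
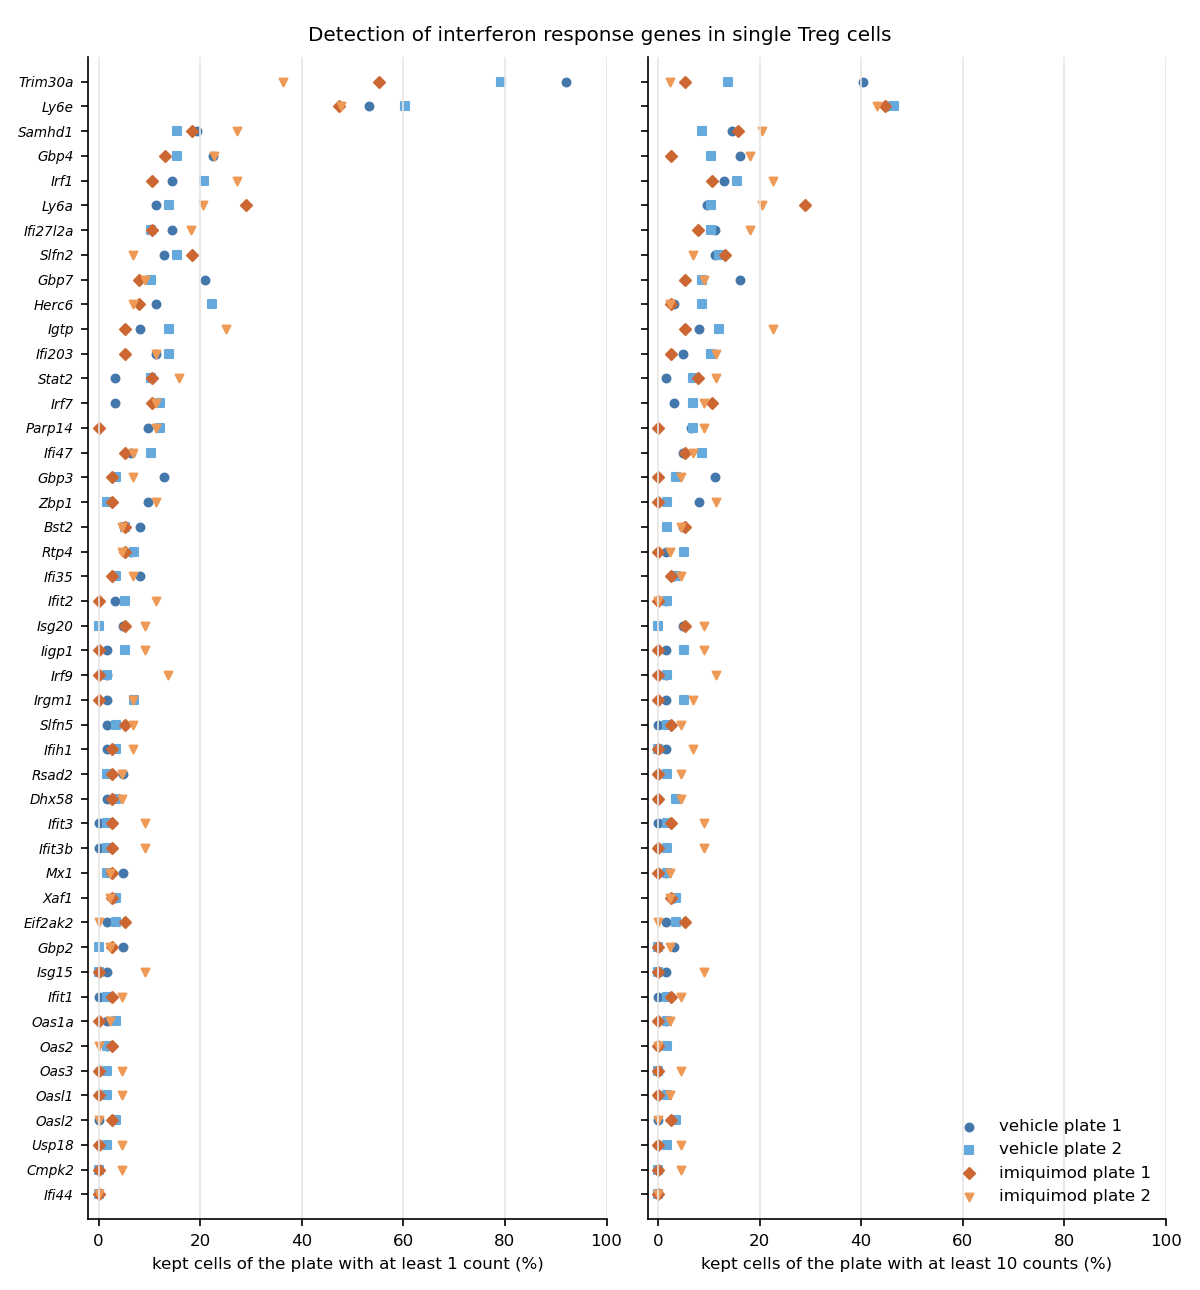
Share of kept cells with a count (left) and with at least 10 counts (right) of each interferon response gene, in percent, by plate. Trim30a goes from 69.3% of all kept cells to 17.8% between the panels, while Ly6e keeps 45.0%.

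The upstream sequences of part of these genes hold the letters of motifs through which interferon signals act. RefSeq start sites of build GRCm38.p6 were matched for 34 of the 46 genes, and 250 bases upstream of each start were searched on both strands for the letters of the ISRE (GAAA, any 2 bases, GAAA) and of the GAS (TTC, any 3 bases, GAA). The ISRE letters were found for 17 of 34 genes (50.0%), against 3.46% of 27025 genes in the same table. The GAS letters were found for 9 of 34 (26.5%), against 8.13%. A match of letters is a description of the sequence and not a measured binding site. Overlapping copies of a motif were counted separately. The GTPases carried the ISRE letters in 5 of 6 matched genes and the IFIT genes in 3 of 4. The stretches below are the 150 bases before the start site for genes named in the results, with the matched letters in capitals. Isg15 holds 3 overlapping ISRE matches, Ifit1 holds 2, Igtp holds 1 ISRE and 1 GAS match side by side, and Slfn2, shown for contrast, holds none. The first capitals of Ifit3 are the end of a match that begins outside the stretch. In order, the stretches lie at chr19:34640739-34640888 (+), chr19:34583379-34583528 (+), chr4:156200819-156200968 (-), chr11:58199406-58199555 (+), chr3:142620513-142620662 (+) and chr11:83064962-83065111 (+).
Ifit1: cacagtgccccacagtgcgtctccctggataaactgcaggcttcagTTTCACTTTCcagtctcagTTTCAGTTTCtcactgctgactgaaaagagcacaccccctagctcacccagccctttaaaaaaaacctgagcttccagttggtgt
Ifit3: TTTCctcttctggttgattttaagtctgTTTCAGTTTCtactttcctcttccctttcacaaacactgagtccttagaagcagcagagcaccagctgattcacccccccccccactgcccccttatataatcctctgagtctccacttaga
Isg15: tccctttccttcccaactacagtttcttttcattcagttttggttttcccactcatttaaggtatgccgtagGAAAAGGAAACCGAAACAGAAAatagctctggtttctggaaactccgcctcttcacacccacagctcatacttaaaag
Igtp: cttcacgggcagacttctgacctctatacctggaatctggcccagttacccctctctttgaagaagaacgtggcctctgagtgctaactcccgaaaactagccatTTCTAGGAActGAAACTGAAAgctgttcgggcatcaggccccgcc
Gbp2: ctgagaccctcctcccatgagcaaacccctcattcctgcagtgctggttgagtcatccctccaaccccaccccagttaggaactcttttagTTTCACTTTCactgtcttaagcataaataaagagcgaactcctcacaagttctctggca
Slfn2: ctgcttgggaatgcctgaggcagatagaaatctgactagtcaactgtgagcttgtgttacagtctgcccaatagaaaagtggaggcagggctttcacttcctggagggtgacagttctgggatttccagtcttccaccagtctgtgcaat

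Among the transcription factors, which drive the response itself, Irf1 and Irf7 were found in 18.3% and 8.91% of kept cells, Stat2 in 9.41% and Irf9 in 3.96%. Irf7, the factor that amplifies type I interferon production, had plate levels of 67.1 and 46.6 CPM after TMM scaling in vehicle and 697.7 and 131.2 in imiquimod. The imiquimod plates were both above the vehicle plates, and 1 cell held most of the counts of each plate, 83.4% and 95.9% for vehicle and 66.0% and 81.9% for imiquimod. With all kept cells its log2 fold change was 2.87, and without the highest cell of each plate 5.05. Without the 2 cells of most genes of the list on each plate it was 1.08. Stat2, the partner of Irf9, was at 7.97 and 22.4 against 169.1 and 294.3 CPM, again without overlap. Irf1, which is induced by interferon-gamma, was at 352.5 and 191.9 against 259.7 and 1418 CPM, and the plates overlapped. On imiquimod plate 2 a single cell held 51.3% of the Irf1 counts, at 77863 CPM. Irf9 was found in 6 cells of imiquimod plate 2 and in 2 cells of all the other plates together.

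The IFIT genes, whose products bind the ends of viral RNA, were rare and had the highest median log2 fold change of the roles, 9.62 over 4 genes. Ifit3 was found in 6 cells in all. Its plate levels were 0 and 0.331 CPM for vehicle and 233.4 and 797.8 CPM for imiquimod. The vehicle signal was 1 cell of plate 2 with 42 counts. On imiquimod plate 1 it was 1 cell with 10911 counts, and on imiquimod plate 2 it was 4 cells with 13, 17871, 27327 and 29226 counts. The cell with 13 counts was well 18, which held the keratinocyte markers. Ifit1 was found in 4 cells: 1 vehicle cell with 73 counts, 1 cell of imiquimod plate 1 with 17072 and 2 of imiquimod plate 2 with 6172 and 22467. Every count of Ifit1 on imiquimod plate 1 came from the same cell that held its Ifit3, well 67. Ifit3b, a close copy of Ifit3 whose reads may be divided between both, was at 0 and 0.252 CPM against 0.043 and 135.3 CPM. A single cell of imiquimod plate 2 held 93.97% of that plate's Ifit3b counts. Ifit2 went the other way, at 14.93 and 7.502 CPM for vehicle and 0 and 0.096 CPM for imiquimod. Its vehicle level was carried by 1 cell on each plate, with 1472 and 951 counts, and no imiquimod cell had more than 4. The IFIT genes thus did not share 1 direction.

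The ISG15 system attaches and removes a ubiquitin-like tag. Isg15, the tag itself, was found in 5 cells: 1 of vehicle plate 1 and 4 of imiquimod plate 2, the latter with 95 to 2206 counts. The cell with 95 counts was well 18, which held the keratinocyte markers. Isg15 levels were 1.41 and 0 CPM for vehicle and 0 and 39.4 CPM for imiquimod, so the plates overlapped. Usp18, which removes the tag, was found in 3 cells, 2 of which, wells 7 and 28 of imiquimod plate 2, also held Isg15. Herc6, the mouse ligase of the family that attaches it, was found in 26 cells, more of them vehicle (20) than imiquimod (6). Its levels were 23.23 and 135.2 against 2.33 and 10.3 CPM. The vehicle plates were both higher, but 87.9% of the counts of vehicle plate 2 lay in 1 cell.

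The OAS genes, which make or resemble the enzymes that activate RNase L, and the cytoplasmic RNA sensors Ifih1 and Dhx58 were each found in 3 to 7 kept cells. A count of at least 10 was seen in 1 to 4 cells per gene. Oas2 and Oas3 did not pass the expression filter and were not tested. Oas3 was at 77.5 CPM before scaling on imiquimod plate 2 with 99.2% of it in 1 cell, and at no more than 0.080 CPM elsewhere.

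Of the other antiviral effectors, Samhd1, which breaks down the nucleotides needed to copy viral genomes, was the most widespread, with a count in 40 cells (19.8%). It was at 296.7 and 119.4 CPM for vehicle and 1094 and 711 CPM for imiquimod. The groups did not overlap, and detection was 19.4% and 15.5% against 18.4% and 27.3%, which did overlap. Isg20, an RNA exonuclease, was found in 9 cells, and Zbp1, a sensor of unusual nucleic acid forms, in 13. Mx1, Rsad2 (viperin), Eif2ak2 (the kinase PKR) and Cmpk2 were found in 2 to 7 cells each. Cmpk2 had no count on any vehicle plate or on imiquimod plate 1, and its 6349 counts came from 2 cells of imiquimod plate 2.

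The interferon-inducible GTPases, of the GBP and IRG families, act on membranes around microbes. At least 1 of the 8 had 10 or more counts in 64 kept cells, 21 and 18 of vehicle and 7 and 18 of imiquimod. At least 2 of them did so in 22 cells, 0 of which were on imiquimod plate 1. Summed over the 8 genes, unscaled levels were 1902 and 797.5 CPM for vehicle and 253.9 and 1550 CPM for imiquimod, with imiquimod plate 1 the lowest of the 4. Gbp4 was at 582.7 and 263.8 CPM for vehicle after scaling and 8.514 and 289.5 CPM for imiquimod. Gbp7 was at 354.6 and 119.3 against 210.6 and 183.6 CPM. Igtp was at 184.5 and 64.34 against 16.22 and 313.6 CPM. These 3 genes overlapped between treatments, with Gbp4 in 38 cells and Gbp7 and Igtp in 26 each.

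The surface proteins gave more counts than any other role on each of the 4 plates. Ly6e was at 1508 and 1128 CPM for vehicle and 4859 and 1630 CPM for imiquimod. Its detection was 53.2% and 60.3% for vehicle and 47.4% and 47.7% for imiquimod, so the higher imiquimod levels did not come with more cells. After thinning it was 51.0% and 58.2% against 46.9% and 43.2%. The median level in cells with a Ly6e count was 870.6 and 308.2 CPM for vehicle and 4595 and 3447 CPM for imiquimod. Ly6a, known as Sca-1, was at 234.3 and 122.4 against 2149 and 570.8 CPM. It was found in 11.3% and 13.8% of vehicle cells and in 28.9% and 20.5% of imiquimod cells, and neither level nor detection overlapped. The exact (Clopper-Pearson) 95% intervals of these shares, which cover counting error only, were 4.66% to 21.9% and 6.15% to 25.4% for vehicle and 15.4% to 45.9% and 9.80% to 35.3% for imiquimod. After thinning, the shares were 11.8% and 14.5% against 25.0% and 20.5%. With 2 plates against 2, the smallest p that an exact two-sided permutation test of these shares can give is 0.3333. In an edgeR test on numbers of cells with a count, 5 genes of the list could be tested and 0 passed (1 at an unadjusted p under 0.05), while 17 of 1988 genes (0.855%) did. Bst2 (tetherin), which holds budding virus at the membrane, was found in 12 cells.

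Of the remaining genes, Ifi27l2a, a small interferon-induced protein, was at 91.3 and 39.1 CPM for vehicle and 212.8 and 516.3 CPM for imiquimod. The plates did not overlap. Slfn2, a Schlafen protein that keeps T cells quiescent, was at 237.1 and 66.80 against 854.3 and 69.42 CPM and overlapped. Ifi203, of the DNA-binding HIN-200 family, was at 34.6 and 16.8 against 37.7 and 54.8 CPM. Trim30a was at 72.9 and 15.5 against 101.2 and 28.22 CPM and overlapped, although its detection was 91.9% and 79.3% in vehicle and 55.3% and 36.4% in imiquimod. After thinning of each cell to 410000 counts it was 68.6% and 54.5% against 31.25% and 13.6%, and at 10 counts without thinning 40.3% and 13.8% against 5.26% and 2.27%. Neither set of shares overlapped. In the 20 wells without a cell, 9 had a count of Trim30a and 3 had at least 10, so the 10-count limit does not remove that background. The share of all genes whose detection differed in this way is not given here. Rtp4, Ifi35, Xaf1, Parp14 and Slfn5 were found in 6 to 18 cells each.

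Imiquimod was compared with vehicle for the 42 genes that passed the expression filter. None of the 42 tested genes passed the test, but their fold changes lay mostly above 0. By edgeR's quasi-likelihood test on plate sums, 0 of 42 passed an adjusted p of 0.05, as did 0.00% of the 14462 genes tested, and the smallest adjusted p of edgeR among the 42 was 0.42. At an unadjusted p under 0.05 there were 5 of 42, all higher in imiquimod, against 11.5% of all genes in either direction and 1.72% higher. The fold change was positive for 33 of 42, against 46.6% of all genes, and its median on the log2 scale was 2.60 against -0.26 over all genes. Both imiquimod plates lay above both vehicle plates for 13 genes, against 13.7% of all genes, and below them for 3, against 31.1%. These shares are after TMM scaling. On unscaled CPM, 4 of the 13 (Ifi47, Ly6e, Ifi203 and Slfn5) overlapped and 9 did not. The share of all genes on unscaled CPM was not computed, so the 9 have no background to be set against. Only genes that passed the expression filter enter these counts, and without that filter 35 of 45 were positive.

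The 5 genes of smallest p were Ifit3, Ifit1, Ly6a, Ly6e and Samhd1. The log2 fold change was 11.59 ± 2.66 (SE) for Ifit3 and 10.18 ± 2.92 for Ifit1, which rest on 6 and 4 cells. It was 2.93 ± 0.93 for Ly6a, 1.30 ± 0.57 for Ly6e and 2.12 ± 0.96 for Samhd1, which were found in 17.3% to 53.0% of cells. Without imiquimod plate 1, Ly6a was at 1.77 and Ly6e at 0.41, and without TMM scaling Ly6e was at 0.64. Irf7 followed with 2.87 ± 1.51 (1.30 without imiquimod plate 1), Stat2 with 3.93 ± 2.09, Ifit3b with 9.05 ± 4.91, Ifit2 with -7.78 ± 4.37 and Ifi27l2a with 2.48 ± 1.52. For Isg15 it was 4.81 ± 4.53, an error close to the value. Ifit3b was the only one of these 10 genes to change sign under an alternative setting, to -1.40 without imiquimod plate 2.

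**Figure D2:**
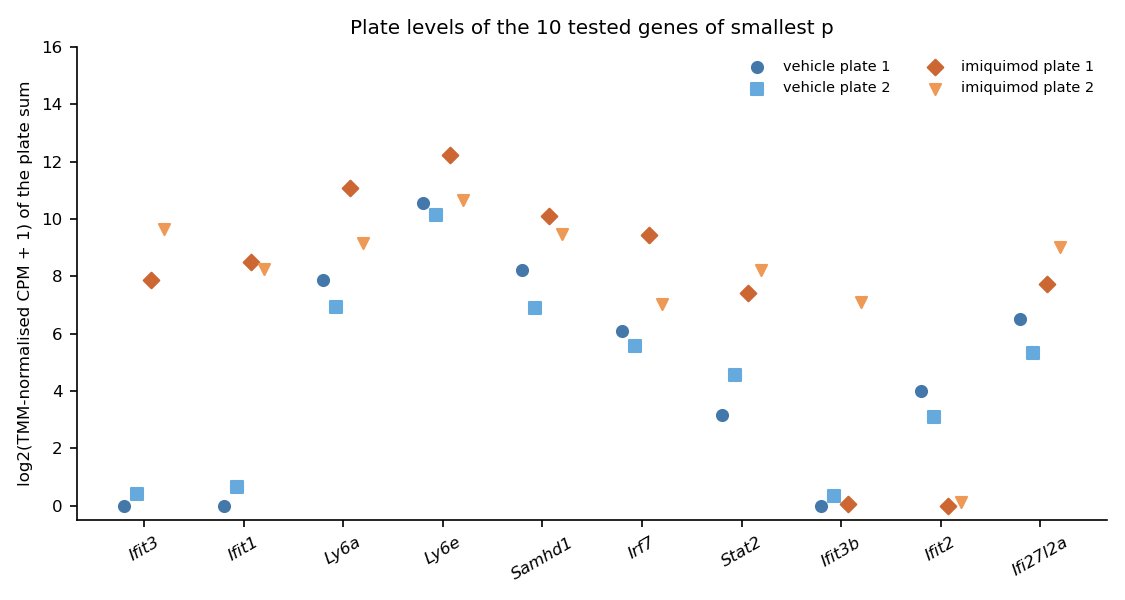
Level of the 10 tested genes of smallest edgeR p on each plate, as log2(TMM-normalised CPM + 1) of the summed kept cells, 1 point per plate. Ifit3 and Ifit1 are near 0 on both vehicle plates, whereas Ly6e differs by 1.30 on the log2 scale.

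Taken by role, positive fold changes were found for 4 of 4 transcription factors, 3 of 3 surface proteins, 6 of 6 other antiviral effectors tested and 8 of 9 of the remaining genes, of which Trim30a turned from 0.55 to -0.06 without TMM scaling. They were found for 3 of 4 IFIT genes, 2 of 3 OAS genes, 2 of 3 genes of the ISG15 system and 2 of 2 RNA sensors. The GTPases were the exception, where 3 of 8 were positive and the median was -0.22 on the log2 scale. The difference between the groups was not tested.

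The result differed between tools and plates. DESeq2 called 11 of the 42 (Irf7, Stat2, Ifit1, Ifit2, Ifit3, Ifit3b, Samhd1, Bst2, Ly6a, Ly6e and Ifi27l2a), in a fit that called 25.9% of all genes, 6.69% as higher in imiquimod. Without imiquimod plate 2, the median of the tested genes was -2.85, the median of all genes -6.56, and 18 of 43 were positive.

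Per cell, the genes were sparse on every plate. The median kept cell held 3 of the 46 on both vehicle plates, and 2 and 3 for imiquimod. At 10 counts or more the medians were 1.5 and 1 for vehicle and 1 and 2 for imiquimod, and 27.2% of all kept cells held none. At the other end, 16 cells held 10 or more of the genes: 4 and 5 of vehicle and 2 and 5 of imiquimod. The number of genes of the list per cell followed the number of all genes in the cell (Spearman's rho of 0.72 and 0.66 over vehicle cells and 0.57 and 0.60 over imiquimod cells, which share a plate and its depth).

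**Figure D3:**
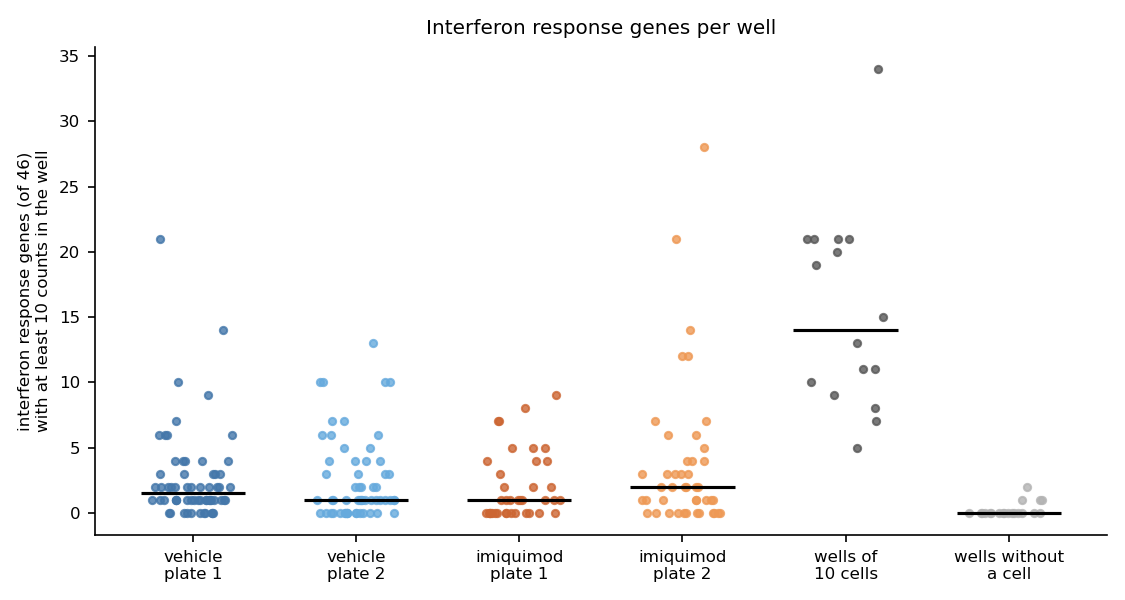
Interferon response genes with at least 10 counts in each well, 1 point per well, for the kept cells of the 4 plates, the wells of 10 cells and the wells without a cell. Most single cells hold 0 to 2, 3 cells stand at 21 or more, and no empty well holds more than 2.

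Few cells carried the summed counts. The sum over the 46 genes was 5461 and 3431 CPM for vehicle and 8442 and 9867 CPM for imiquimod, unscaled, so both imiquimod plates were higher. On the vehicle plates 5 and 7 cells held 50% of it, and on the imiquimod plates 5 and 4 cells. It took 17, 18, 13 and 18 cells to reach 90%. Ly6e alone was 30.1% and 42.0% of the summed counts for vehicle and 40.0% and 15.5% for imiquimod. For the median gene with a count on the plate, the highest cell held 71.4% and 87.9% of its counts for vehicle and 98.8% and 71.2% for imiquimod.

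**Figure D4:**
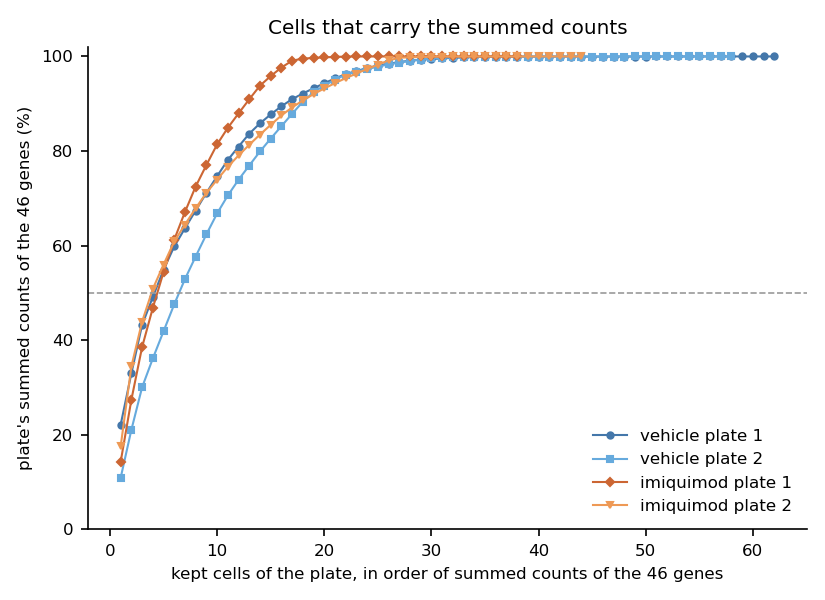
Cumulative share (percent) of a plate's summed counts of the 46 genes, with its kept cells ordered from the highest sum to the lowest, 1 point per cell. The curves cross 50%, the dashed line, within 4 to 7 cells and 90% within 13 to 18 cells.

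A set of 3 cells held 20 or more of the genes, and they differed in which. Well 7 of imiquimod plate 2 held 32, which made up 6.51% of its counts. Well 28 of the same plate held 23 (6.20% of its counts), and well 53 of vehicle plate 1 also held 23 (4.71%). In well 53, all 8 GTPases were present and gave 60.8% of its counts of the list, while it held 0 of the IFIT and OAS genes. Of the ISG15 system this cell held Herc6 only, at 3.89 CPM. In well 7, 3 IFIT genes gave 20.4% and 7 GTPases 25.7%. In well 28, all 4 IFIT genes gave 30.2% and 4 GTPases 16.3%. Well 67 of imiquimod plate 1 held 11 of the genes, with 34.6% of the counts of the list from IFIT genes and 7.38% from GTPases.

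**Figure D5:**
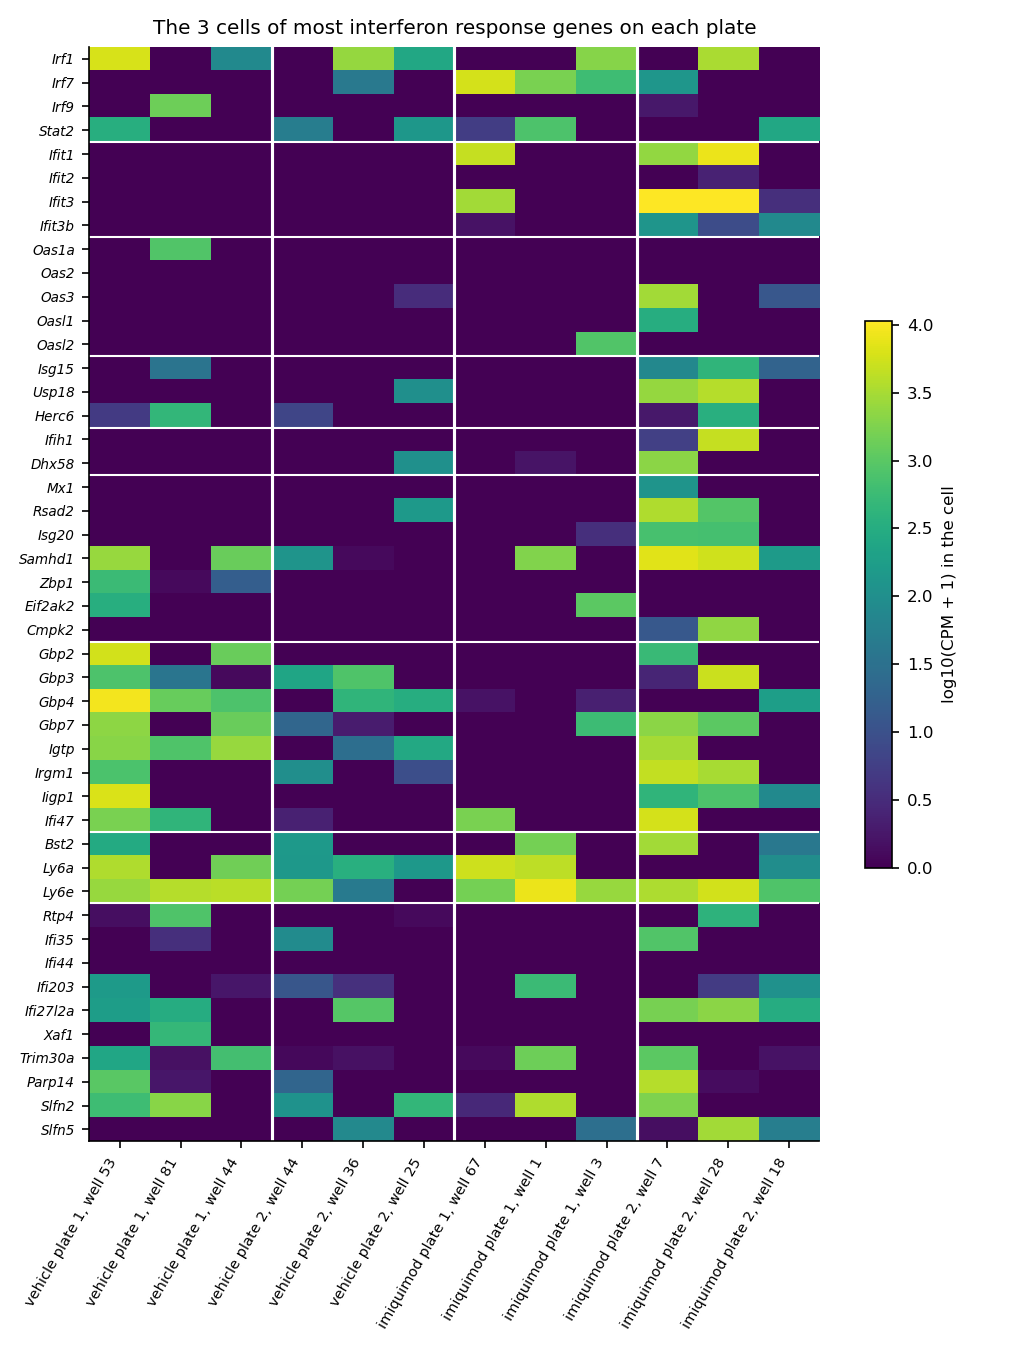
Level of each interferon response gene, as log10(CPM + 1), in the 3 cells of most such genes on each plate. The GTPases fill the column of well 53 on vehicle plate 1, which has no IFIT gene, while wells 7 and 28 on imiquimod plate 2 hold both IFIT genes and GTPases.

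These cells carried T cell transcripts. Well 53 held 6 of the 7 Treg markers at 10 counts or more, among them Foxp3, Il2ra, Ctla4 and Icos, but not Ikzf2. Well 28 held 2 of the 7, Foxp3 and Ikzf2, only 1 of them at 10 counts or more. Its T cell markers were Cd2, Tcra and Tcrb. Genes listed as markers of other cells were also in well 53: Kit at 656.4 CPM, Zbtb46 at 561.4, Pecam1 at 452.5 and Cd68 at a lower level. Of these, Zbtb46 was found in 33.7% of all kept cells, Kit in 17.3%, Pecam1 in 14.4% and Cd68 in 1.98%. Well 7 held 3 of the 7 Treg markers, Ikzf2, Ctla4 and Icos, and also Cd4, with Foxp3 and Il2ra absent. Neither well 7 nor well 28 had a count of Cd3e, Cd3d or Cd3g. Summed, Treg markers were at 7159 CPM in well 53, 579.2 in well 7 and 4004 in well 28. The plate sums were 12890 CPM for vehicle plate 1 and 7760 for imiquimod plate 2. Wells 7 and 28 also held haemoglobin transcripts, at 1031 and 487.3 CPM. Well 7 held Lyz2, a gene of macrophages and other myeloid cells, at 167.9 CPM, and well 28 held Pecam1, an endothelial marker, at 4024 CPM and S100a9 at 53.2 CPM. Well 53 had 4599 genes, above the 4345 of the poorest well of 10 cells, as had 6 other kept cells, so more than 1 cell in these wells cannot be told apart from a rich cell. Wells 7 and 28 had 1613 and 1536 genes. Without all cells as rich as a well of 10, 32 of 40 tested genes were positive and the median was 2.48.

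Wells 7 and 28 carried a large share of the list on imiquimod plate 2. Together they held 34.4% of its counts of the list but 5.35% of all its counts. Of the 42 genes with a count on that plate, 15 had over 90% of their counts in these cells, and Ifit1, Usp18, Mx1, Rsad2, Cmpk2 and Gbp2 had all of them there. Without the 2 cells of most genes of the list on each plate, 36 genes could be tested, 27 were positive and the median was 1.94. Ifit3 was then at 9.00 and Ly6a at 2.86, while Ifit1 was no longer tested.

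To see which genes of the list met in the same cell, cells were thinned to 410000 counts, which left 51, 55, 32 and 44 cells, and 18 genes were found in at least 5% of them. Over their pairs, the cells with both genes were a median of 0.128 of the cells with either (the Jaccard index). Ly6a and Ifi27l2a shared most, with 16 of 41 cells (0.39), followed by Ly6a and Slfn2 with 14 of 42. Ly6e and Trim30a shared 41 cells, yet their levels were uncorrelated within plates (Pearson's r of -0.0044 over the thinned cells). For Ly6a and Ly6e, which shared 28 of 95 cells, r was 0.44. Of the pairs of these 18 genes 7.19% had an r over 0.3, against 19.1% of all pairs in the list, most of which hold a gene found in few cells. Of 9 kept cells with at least 10 counts of an IFIT gene, 8 also had a GTPase and 8 a transcription factor, at the same limit. Of 64 cells with a GTPase, 8 had an IFIT gene.

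Outside the list, the genes whose levels most followed the number of list genes per cell were looked up among 6595 genes found in at least 5% of the thinned cells. The largest correlation was that of Tapbp, which encodes tapasin of the MHC class I peptide-loading complex, with r of 0.58 over the thinned cells, centred by plate. Next came Mff, Prdx1, Gm41005, Oaz1-ps, AV051173, Glrx, Timm17a, Ms4a4b and Sugt1, from 0.55 to 0.52. The median over all 6595 was 0.14, and these values were not adjusted for the number of genes in a cell. Of 22 further interferon-stimulated genes among them, 2 were in the first 100.

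The wells of 10 cells gave a second view, in which fewer cells with a transcript and less of it per cell cannot be told apart. They held 6 to 35 of the genes, with a median of 16.5, against 3 per single cell. By set the medians were 19, 11.5, 15.5 and 27.5 in the sets named POS, POS2, POS3 and POS4. Ly6e was present in 16 of 16 wells, from 727 to 4392 CPM with a median of 2462. Ly6a was present in 15, and Samhd1, Gbp4, Ifi27l2a and Slfn2 in 14 each. Of the 46 genes, 19 were in at least 8 wells and 4 (Oas2, Oasl2, Mx1 and Ifi44) in none. The order of the genes by detection was much the same as in single cells (Spearman's rho of 0.93 over 46 genes). Ifit1 was found in 4 wells, 3 of them in set POS4 at up to 688 CPM, and Ifit3 in 3 wells, all of POS4, at up to 610 CPM. POS4 also had the highest medians of genes per well.

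In the 20 wells without a cell, 41 of the genes had no count, which allows a share of up to 15.0% of such wells. Of the 5 that did, Trim30a, Ly6e and Herc6 had at most 15 counts, whereas Oasl2 had 4425 and Ifi47 4976 counts. Both of these lay in the same well. That well held 1527760 counts and 885 genes, which would pass the limits set for kept cells. Most of these wells held few counts, so a share of their counts says little.

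The other genes of the pathway were read from a list of 87. Of the interferons themselves, Ifng was found in 2 kept cells, at 223.3 CPM unscaled on imiquimod plate 1, and Ifnl3 in 1, while Ifnb1, Ifna1, Ifna2, Ifna4, Ifnk and Ifnl2 had no count. The receptor chains Ifngr1 and Ifnar1 were found in 82 and 50 kept cells. Of the signalling genes, Stat3 was found in 92 cells, Jak1 and Jak2 in 67 each and the kinase Tbk1 in 95. At 10 counts, Stat3 was still in 39.6% of cells but Tbk1 in 10.4%, and Tbk1 had counts in 2 wells without a cell. Tlr7, the receptor that imiquimod acts on, was found in 3 kept cells. Among further interferon-stimulated genes, B2m, whose product is the small subunit of MHC class I, was found in 55.4% of cells, Shisa5 in 90 cells, Nlrc5, the activator of MHC class I genes, in 60 and the immunoproteasome subunit Psmb8 in 50.

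B2m was at 898 and 822 CPM after scaling for vehicle and 2187 and 1289 CPM for imiquimod. Shisa5 was at 676 and 739 against 1432 and 1332 CPM, and Nlrc5 at 580 and 599 against 334.7 and 55.8 CPM. For Stat3 the levels were 1196 and 1296 against 183.9 and 1578 CPM, with imiquimod plate 1 far below the rest. Ifnar1 was at 470.6 and 121.1 against 9.712 and 455.5 CPM, and Ifngr1 at 406.9 and 536.1 against 1205 and 359.5 CPM. Tbk1 was at 70.3 and 96.2 against 7.166 and 252.1 CPM, Jak1 at 681.0 and 265.9 against 57.48 and 630.9, Jak2 at 235.1 and 113.4 against 203.01 and 196.8, and Psmb8 at 746.7 and 269.98 against 698.6 and 288.9 CPM.

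By edgeR 0 of the 70 genes tested in this wider list passed, and 43 were positive (61.4%, against 46.6% of all genes). At an unadjusted p under 0.05 there were 5 (7.14%), against 11.5% of all genes in either direction. At that limit 3 of the 70 were higher in imiquimod, against 1.72% of all genes. Oas1b, Pml and Ifit1bl1 were higher in imiquimod, and Helz2 and Cxcl10 were lower. Cxcl10, a chemokine gene induced by interferon-gamma, was at 28.1 and 47.1 CPM on the vehicle plates and had no count in the kept cells of either imiquimod plate. It was found in 2 kept cells only, and in 1 of the 20 wells without a cell. DESeq2 called 11 of the 70 at an adjusted p under 0.05, 7 of them higher in imiquimod, against 25.9% of all genes, 6.69% as higher.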

How the data were processed

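The deposited values are raw counts of reads per gene in 384 wells, 1 library per well. Per the labels' protocols, cDNA of sorted cells was made with oligo dT primers and a template-switch oligo, amplified by PCR and tagmented. No molecular identifiers are mentioned, so intervals and limits cover counting error only. Per the submitters' processing notes, the authors used Trimmomatic 0.39, STAR 2.7.3a and SAMtools 1.12 with build mm39. The counting tool, strand setting and annotation are not given in the sources used here, so overlapping and near-identical genes (IFIT, GBP, OAS) are uncertain.

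The genes and lists were chosen with earlier results of these data known. Counts of the kept cells were summed per plate, filtered with edgeR 4.0.16 (filterByExpr), scaled by TMM and tested by quasi-likelihood with Benjamini-Hochberg adjustment at 0.05. CPM are not corrected for length. Alternatives used DESeq2 1.42.0, limma 3.58.1, other filters on cells and genes, thinning, and leaving out cells or plates. Values by plate are given for the 12 genes found in most kept cells, the 10 of smallest p, and Isg15, Ifit1, Ifit3 and Irf7, and for the 10 other pathway genes found in most cells. Irf9, Oas3, Cmpk2, Ifng, Cxcl10 and the markers with values were named after their values were seen. Wells of 10 cells and without a cell entered no comparison. No doublet caller was run. On counts simulated for this comparison at the fitted common dispersion of 2.71, 0 of 193 genes changed 4-fold were recovered, and at a dispersion of 0.05 all but 1. Upstream sequences came from RefSeq GRCm38.p6, an older build than mm39, and no coordinates were converted.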

Additional observations from a re-analysis of the deposited data

Results flagged for a closer look

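In the ten-cell set POS4, 1 well had 34 of the 46 genes at 10 counts or more, while the other wells of the set had 19, 21 and 21. Its gap to the next well was 0.867 of the range of the 4 wells, above the 95% critical value of Dixon's test for 4 values. Chance gives such a gap in about 1 group of 20, and 12 were examined. The well held 8775 genes, the most in its set.

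Among the single-cell wells with a count that missed the filters, 1 well had 3 of the genes at 10 counts or more. In all, 46 of them (31.7%) had at least 1 such gene. Of the 20 wells without a cell, 4 (20.0%) did, with at most 2 genes in a well.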

How the results depend on the processing

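The edgeR test called 0 genes and 0 of the list, with limma, without TMM, with other filters on cells, with thinning and without the highest cells. DESeq2 called 3740 genes and 11 of the list, edgeR without an expression filter 9 and 1 (Ifit3), and a test on numbers of cells with the gene detected 17 and 0. Leaving out 1 plate gave 0 to 794 genes called and 0 to 9 of the list. The highest came without imiquimod plate 2, and without imiquimod plate 1 the list had 3 (Ifit1, Ifit3 and Dhx58). The lone plate is then assumed to vary like the others. The median log2 fold change of the list ranged from -2.85 to 3.30 when 1 plate was left out, and the number of positive genes from 18 to 40. Positive genes were 19 of the 27 still tested without each gene's highest cell, and 4 of the 5 tested by number of cells. Without TMM the median of all genes moved from -0.26 to -0.78 and that of the list to 2.11. With limma on mean log2(CPM + 1) per cell the median of the list was 0.14, with 28 of 42 positive. Leaving out 1 plate moved Ifit3b between -1.40, without imiquimod plate 2, and 15.42, and the cause was not tested. Among the 10 genes of smallest p, this value of Ifit3b without imiquimod plate 2 was the only 1 to change sign under an alternative. Other genes of the list also changed sign, such as Trim30a without TMM. The median of 3 genes per cell became 2 after thinning, 1 at 10 counts, 4 in cells of 1000 genes or more and 2 over all wells with a count. The filter on gene-rich wells was added after seeing the data. No paired analysis was possible because the labels give no number shared between vehicle and imiquimod plates beyond well numbers, which only name wells. At the spread between these plates, differences of 4-fold were not detectable on simulated counts.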
